A study of Solanum lycopersicum with 3 samples.

Results

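The comparison set RNA from the cell debris pellet of a high-salt extraction method against RNA from the supernatant of that method. Both were from tomato (Solanum lycopersicum, strain Ailsa Craig) fruit pericarp, the fleshy wall of the fruit. The members of the comparison were chosen by their labels: the array titled as the pellet of extraction method 2 and the array titled as extraction method 2. These are 2 of the 3 arrays of the series, over the 10038 of 10209 probe sets that are not controls. Each array is an Affymetrix tomato GeneChip hybridised with total RNA, and each stands alone in its group. There is therefore no replicate check, no test and no p-value below. Differences are between single arrays, and their number limits the precision.

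For the Ex2 supernatant, 10 to 12 g of pericarp was taken up in 2 ml per g of a buffer of 0.2 M Tris, 0.2 M sucrose, 30 mM magnesium chloride and 0.6 M potassium chloride. Debris was spun down at 10000 x g for 15 min, and detergent and phenol were added only to the supernatant. The pellet was kept and extracted again by the same method. Its extraction text is otherwise the same as that of the supernatant, so the labels do not say in what volume the debris was taken up. The third array, Ex1, holds RNA from pericarp that went straight into a phenol-containing buffer, and its levels are given beside the others as a reference. The labels give the glasshouse conditions but no fruit age or ripening stage, and they do not say how many fruits went into a preparation or whether the preparations shared fruit.

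In plant cells the messages of proteins that are secreted, or that sit in the plasma membrane, the endoplasmic reticulum (ER) or the vacuole, are as a rule translated by ribosomes docked on the ER membrane. Messages of proteins of the cytosol, nucleus, mitochondria and plastids are mostly translated on free ribosomes. Ripening pericarp makes large amounts of both kinds: enzymes that loosen the pectin and hemicellulose of the wall, defence proteins and transporters on one side, and ethylene, carotenoid, sugar and aroma enzymes on the other. The study's title names mRNAs of secreted and endomembrane proteins as the target of the supernatant method. The comparison of its pellet with its supernatant asks which messages stayed with the debris.

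Levels are deposited intensities on a linear scale, and differences are log2(intensity + 1) of the pellet minus that of the supernatant. Probe sets and genes were compared where at least 1 of the pair of arrays read 175 or more, which is the median over non-control probe sets. Of the 10038 probe sets, 5538 did so: 4470 on both arrays, 576 in Ex2 alone and 492 in the pellet alone. The 576 and the 492 had to differ between the arrays to be where they are. Among the 5538, 1095 were at least 2-fold lower in the pellet (19.8%) and 943 at least 2-fold higher (17.0%), together 36.8%. The quartiles of the differences were -0.71 and 0.76, and the median was 0.07.

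The tails were unequal. At least 4-fold lower in the pellet were 242 probe sets, and at least 4-fold higher were 62. Past 8-fold there were 8 on the lower side and 0 on the higher side. Over the 4470 probe sets bright on both arrays, the split at 2-fold was nearly even, with 675 lower (15.1%) and 683 higher (15.3%), together 30.4%. The split also moved with brightness. In the dimmest of 5 equal bins of mean level, 27.3% of probe sets were at least 2-fold lower and 17.8% higher, and in the brightest bin 15.0% and 14.4%. The dimmest bin spans mean log2 levels from 5.94 to 7.90, and the filter lies at 7.46. Any probe set with a mean below the filter was bright on 1 array alone and so had to differ.

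**Figure D1:**
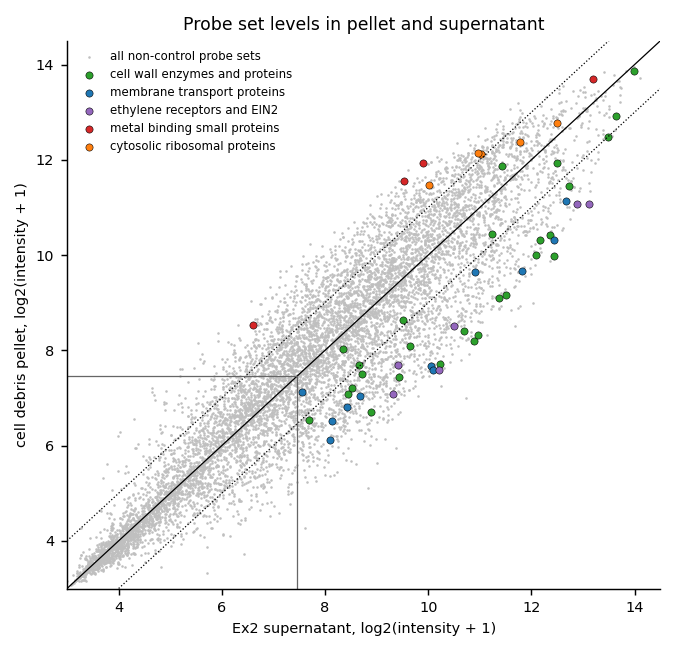
Level of every non-control probe set on the Ex2 supernatant array (x axis) and the pellet array (y axis), both as log2(intensity + 1), with compared genes of 5 lists in colour. The solid diagonal marks equal levels, dotted lines mark 2-fold, and probe sets inside the grey corner were too dim to compare; the 6 ethylene receptor and EIN2 genes all lie below the lower dotted line, and 3 of 4 metal binding genes lie above the upper one.

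The arrays also differed in controls. The bacterial hybridisation spikes bioB, bioC and bioD were 1.56-fold brighter on Ex2 than on the pellet at the median of 21 probe sets. Signal from the 3' end over that from the 5' end, a measure of RNA length, was 1.71 for actin on Ex2 and 1.35 in the pellet. For EF1a it was 3.27 and 2.81, and for GAPDH 1.45 and 1.34. The control named GlutTrans went the other way, at 0.0815 on Ex2 and 0.159 on the pellet. Signal for 25S ribosomal RNA was 367 in Ex2 and 568 in the pellet. The part of these differences in the results below was not tested. Scaling each array on the median level of these spike probe sets moved every difference up by 0.55, a different statistic from the median of their ratios, and scaling on 5 cytosolic ribosomal protein genes moved it down by 1.12. Directions below hold on the deposited scale, on which the median difference of all probe sets was near 0. Under the spike scaling the split of probe sets became 1994 higher to 567 lower, and under the ribosomal protein scaling 40 to 2863.

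Names were available for 909 of the probe sets, which stand for 803 genes, and 499 of these genes were bright enough to compare. At least 2-fold lower in the pellet were 107 of them (21.4%), and at least 2-fold higher 47 (9.42%), together 30.9%. Of the 107, 33 were bright on Ex2 alone, and of the 47, 8 on the pellet alone, so that the filter itself required these to differ. The named genes split 130 higher to 55 lower under the spike scaling and 3 to 307 under the ribosomal protein scaling. Their median difference was -0.07, with quartiles of -0.82 and 0.46. Thus named genes lay somewhat lower than the array as a whole, and a list is best read against both medians.

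Lists of genes with a common role were drawn up with earlier results of these data known. On the 8 lists of secreted and membrane proteins, 65 of 112 genes were compared. In the pellet 47 of the 65 were at least 2-fold lower and 0 at least 2-fold higher, with a median of -1.53 and 63 below 0. Some of the 65 were bright on Ex2 alone, and the filter itself required these to differ. Over members bright on both arrays the medians were -1.43 for 22 cell wall genes and -0.75 for 11 secreted defence genes. They were -2.15 for 6 transport genes, -2.01 for 5 ethylene receptor and EIN2 genes and -0.88 for 2 vacuolar genes. The cell surface, ER and cell wall invertase lists had 1 such gene each. On the 15 lists of other proteins, 110 of 143 genes were compared, with 16 at least 2-fold lower, 19 higher and a median of 0.05. The 324 compared genes on none of these lists had a median of 0, with 44 lower and 28 higher.

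**Figure D2:**
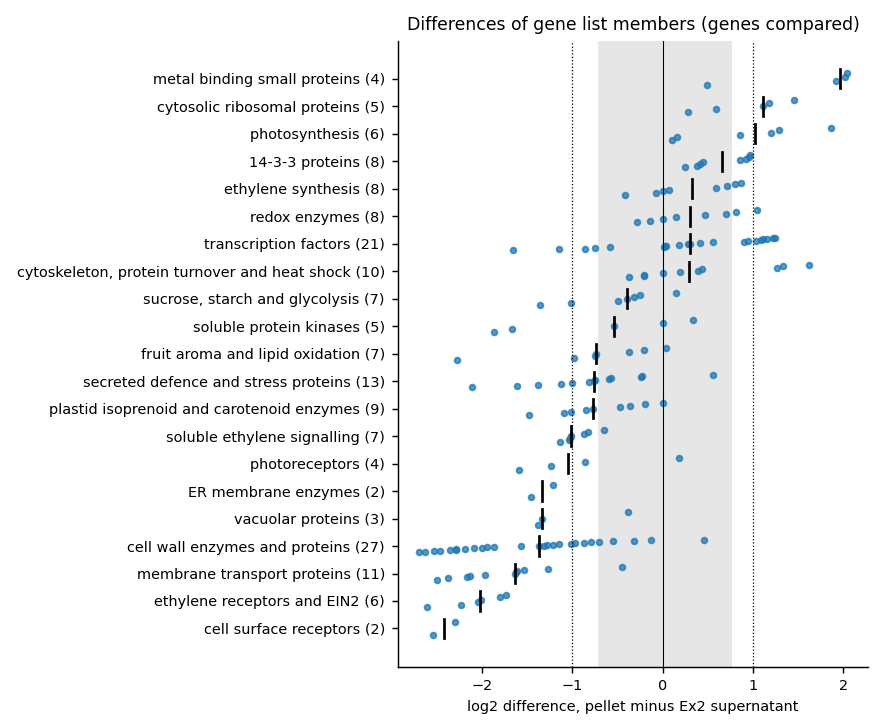
Log2 difference (pellet minus Ex2 supernatant, x axis) of each compared gene, by list (y axis, number of genes in brackets); each point is a gene and each black bar the median of its list. The grey band spans the quartiles of all compared probe sets, -0.71 to 0.76, and dotted lines mark 2-fold; among these planned lists the cell surface receptors had the lowest median and the metal binding proteins the highest.

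Cell wall enzymes and wall proteins were lower in the pellet, the beta-galactosidases most of all. Of 52 genes on this list 27 were compared, and 19 of these (70.4%) were at least 2-fold lower, against 21.4% of named genes. Of the 27, 26 were below 0, with a median of -1.36. For the 22 of them bright on both arrays the median was -1.43. The remaining compared genes passed the filter through Ex2 alone, so the filter itself required them to differ. Among them were TBG6, CEL8, PMEU1 and LOC543916 (XTH9). The other 25 of the 52 genes were too dim on both arrays to compare. Of these, the abscission polygalacturonase genes TAPG1, TAPG2 and TAPG4 read between 7.73 and 11.0 on both arrays.

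The beta-galactosidase genes, whose enzymes trim galactose side chains from pectin, held 5 of the 12 lowest places among named genes. TBG1 read 295 in Ex1, 1903 in Ex2 and 293 in the pellet, a difference of -2.70. TBG5 read 199.7, 1994 and 320.5, a difference of -2.63. For TBG1 the pellet stood at the level of Ex1, for TBG5 above it, and in both the supernatant was by far the highest array. TBG2 read 1204 in Ex2 and 208 in the pellet, TBG3 read 5554 and 1008, and TBG4 read 2666 and 546. TBG6 was much closer, at 206 in Ex2 and 92.5 in the pellet, and TBG7 was not above 19.5 on either array. The family thus ranged from -2.70 to -1.15 among its 6 compared members.

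Pectin and cellulose enzymes followed. GP1, the polygalacturonase beta subunit, read 134 in Ex1, 1661 in Ex2 and 338 in the pellet. Cel3, an endoglucanase with a membrane anchor, read 386, 2913 and 569. The endoglucanase genes CEL8 and Cel2 differed by -2.18 and -1.95, and Cel1 by -1.57. All 4 were at least 2-fold lower in the pellet. The pectin methylesterase genes PME2.1 and PMEU1, whose enzymes strip methyl groups from pectin, differed by -2.08 and -1.99, while their relative PE1 at 12684 in Ex2 and 7794 in the pellet, differed by -0.70. The beta-xylosidase genes parted in the same way: LOC543515 (XYL2) differed by -1.87 and XYL1 by -0.32.

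Expansins, which loosen the wall without cutting it, and the enzymes of xyloglucan lay nearer to 0. EXP1, the ripening expansin, read 2321 in Ex1, 6811 in Ex2 and 2796 in the pellet, a difference of -1.28. EXP5 and EXPA3 differed by -1.21 and -0.87. Among xyloglucan endotransglucosylases, LOC543916 (XTH9) differed by -1.36, tXET-B2 by -1.31, XTH3 by -0.98 and XTH5 by -0.55. The mannanase gene Man4 differed by -1.01 at 11487 in Ex2. PG2, the fruit polygalacturonase and the brightest gene of the list, read 16220 in Ex2 and 14827 in the pellet, a difference of -0.13 that turned to 0.42 under the spike scaling. TLRP, a small tyrosine- and lysine-rich wall protein, was the 1 compared member above 0, at 2743 in Ex2 and 3769 in the pellet, and turned to -0.66 under the ribosomal protein scaling.

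Secreted defence and stress proteins were also lower in the pellet, but most by less than 2-fold. Of 19 genes 13 were compared, 12 of them below 0, with a median of -0.76. At least 2-fold lower were 5 (38.5%), against 21.4% of named genes. The subtilases, large secreted proteases, lay lowest: SBT1 read 345 in Ex2 and 78.8 in the pellet, and sbt3 read 243 and 79.1. Both passed the filter through Ex2 alone. The pathogenesis-related gene LOC543878 (PR5) differed by -1.38, the acid phosphatase gene APS1 by -1.13. The glucanase gene GluB was 2.01-fold lower. These 5 are all the members past 2-fold.

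Chitinases, which cut fungal wall chitin, lay between -0.82 and -0.59: CHI3 at -0.82, CHI9 at -0.75 and CHI17 at -0.59. CHI9 was bright throughout, at 2045 in Ex1, 10686 in Ex2 and 6347 in the pellet, so the pellet stood above Ex1 and below the supernatant. The antifungal genes PR1b1 and PR-P2 differed by -0.76 and -0.57. The osmotin-like NP24-I, brightest of the list at 13738 in Ex2, differed by -0.24, which turned to 0.30 under the spike scaling. The lipid transfer proteins are small secreted carriers of surface lipids. TSW12 read 1240 in Ex2 and 1059 in the pellet, and LE16 read 688 in Ex2 and 1014 in the pellet, a difference of 0.56 and the 1 value above 0 here. LE16 turned to -0.56 under the ribosomal protein scaling.

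Membrane transport proteins had 11 of 19 genes compared. At least 2-fold lower in the pellet were 10 of the 11 (90.9%), against 21.4% of named genes. The median of the 11 was -1.63. For the 6 of them bright on both arrays the median was -2.15. The other compared members, SUT4, SUT2, HT3, Nramp2 and TIP, passed the filter through Ex2 alone. The filter itself required these to differ. NHX2, a cation/proton antiporter, read 174 in Ex1, 1095 in Ex2 and 192 in the pellet. The plasma membrane proton pumps, which energise uptake across that membrane, read 1065 in Ex2 and 204 in the pellet for LHA1 and 5548 and 1266 for LHA2. For NHX2 and LHA2, at 1251 in Ex1, the pellet and Ex1 levels lay close together. The phosphate transporter gene PT1 differed by -2.17, and the sucrose transporter genes SUT4 and SUT2 by -1.97 and -1.63.

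The hexose transporter gene HT3 differed by -1.62, the metal transporter genes Nramp2 and NRAMP3 by -1.61 and -1.53, and the aquaporin gene Aqp2 by -1.27. NRAMP3 was the brightest transporter, at 6499 in Ex2 and 2249 in the pellet. The exception to the 2-fold difference was TIP, a water channel of the vacuolar membrane, at 188 in Ex2 and 138 in the pellet, a difference of -0.45 that turned to 0.10 under the spike scaling. A further 8 genes for amino acid, peptide and sugar carriers were grouped after their values were seen. The 5 that could be compared all lay at least 2-fold lower in the pellet, with a median of -1.70. Of these, AAP1 and AAP2 were bright on Ex2 alone, so the filter itself required them to differ. The 3 bright on both arrays also had a median of -1.70. The proline transporter gene ProT1 was lowest, at 1254 in Ex2 and 332 in the pellet, and the oligopeptide transporter gene OPT1, the brightest, read 1837 and 563.

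The cell surface receptors were both at least 2-fold lower in the pellet, but only Eix1 was bright on both arrays. Ve2, a receptor-like protein of Verticillium resistance, read 89.5 in Ex1, 463 in Ex2 and 79.0 in the pellet, and so passed the filter through Ex2 alone. Eix1, a receptor-like protein for a fungal xylanase, read 664, 3452 and 703. The third member, Ve1, was not above 12.8 on either array. Other membrane and vacuolar proteins had fewer members. HMGR, the ER membrane enzyme that supplies mevalonate, read 279.5 in Ex2 and 101 in the pellet, and CYP85A1, a cytochrome P450 of brassinosteroid synthesis, read 5675 and 2447. The second compared probe set of CYP85A1 gave -1.70, beside -1.21 for the first. HMGR passed the filter through Ex2 alone.

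The vacuolar list had 3 compared genes with a median of -1.34, or -0.88 over the 2 bright on both arrays. VPE5, a vacuolar processing enzyme, differed by -1.38, and its second compared probe set by -1.42. The cysteine protease gene CYP1 differed by -1.34 and passed the filter through Ex2 alone. The acid invertase gene AI, which splits sucrose in the vacuole, was the highest of the 3, at 17521 in Ex2 and 13434 in the pellet, a difference of -0.38 that turned to 0.16 under the spike scaling. The cell wall invertase gene lin5 read 190 in Ex1, 1341 in Ex2 and 352 in the pellet.

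The ethylene pathway held proteins of both kinds. Ethylene is sensed by receptors in the ER membrane, and EIN2 sits in that membrane too, while the CTR kinases and the EIL transcription factors are soluble. The 6 compared receptor and EIN2 genes were all at least 2-fold lower in the pellet, with a median of -2.02. EIN2 read 131 in Ex1, 1176 in Ex2 and 193 in the pellet. ETR6 read 113, 633 and 134, and so passed the filter through Ex2 alone. For the 5 genes bright on both arrays the median was -2.01. The brightest receptor, LOC544279 (ETR3), read 4058, 8857 and 2153, so that its pellet level lay below Ex1 as well, and ETR4 had the same order at 3583, 7508 and 2152. ETR1, at -2.01, and ETR2, at -1.73, completed the group.

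The 7 compared soluble members were also all lower in the pellet, 4 of them past 2-fold, and their median was -1.01. They ranged from -1.13 for CTR1, at 442 in Ex2 and 201 in the pellet, to -0.64 for EIL1, at 1406 and 899. CTR3, 1 of those past 2-fold, passed the filter through Ex2 alone. For the 6 soluble members bright on both arrays the median was -0.94. No soluble member reached the value of the highest receptor, ETR2. Whether the receptor and soluble groups differ was not tested, since single arrays allow none. For every soluble member compared, the pellet stood below both Ex2 and Ex1, as CTR1 did against its Ex1 level of 363.

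**Figure D3:**
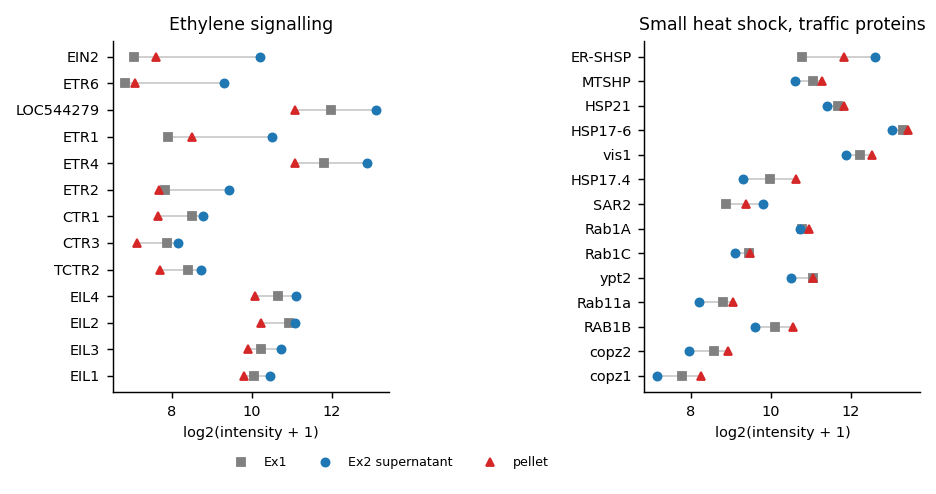
Levels on the Ex1, Ex2 supernatant and pellet arrays as log2(intensity + 1) (x axis) for the compared genes of ethylene signalling (left) and for small heat shock proteins and vesicle traffic proteins (right), 1 gene per row and 1 point per array. At left the receptor and EIN2 genes show the widest gap between supernatant and pellet; at right ER-SHSP and SAR2 have the supernatant highest and the other 12 genes the pellet above the supernatant.

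Ethylene synthesis genes showed no such shift. Of 13 genes 8 were compared, with a median of 0.33 and none past 2-fold in either direction. E8, an ethylene-linked ripening gene, had the same deposited value on both arrays, 10418. ACS2, a ripening ACC synthase, was the lowest, at 4623 in Ex2 and 3459 in the pellet, and ACS1A the highest at 0.87. The ACC oxidase genes ACO4 and ACO5, for the last step of ethylene synthesis, differed by 0.59 and 0.71.

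Small heat shock proteins gave a comparison of related proteins with different destinations, a group formed after the values were seen. All 6 were bright on both arrays. ER-SHSP, named for its place in the ER, read 1756 in Ex1, 6273 in Ex2 and 3668 in the pellet, a difference of -0.77. The mitochondrial MTSHP read 2131, 1569.8 and 2498, a difference of 0.67, and the plastid HSP21 differed by 0.44. The other members, HSP17-6, vis1 and HSP17.4, differed by 0.40, 0.66 and 1.34. ER-SHSP was thus the 1 member below 0 and the 1 member whose supernatant level was above both other arrays.

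Proteins that work on membranes but are made in the cytosol were also collected after the values were seen. Vesicle traffic GTPases and coat subunits had 8 genes, all compared, 7 of them above 0, with a median of 0.70. At least 2-fold higher was 1 (12.5%), copz1, against 9.42% of named genes. It passed the filter through the pellet alone, so the filter itself required it to differ. Over the 7 members bright on both arrays the median was 0.56. The COPI coat zeta subunit genes copz1 and copz2 were 2.14-fold and 1.95-fold higher, and the Rab GTPase genes RAB1B, Rab11a and Rab1A differed by 0.95, 0.85 and 0.21. SAR2, a GTPase of vesicle budding at the ER, was the exception, at 895 in Ex2 and 663 in the pellet. The remorin genes rem-1 and rem-2, for proteins on the inner face of the plasma membrane, differed by 0.76 and 1.32. These directions are those of the deposited scale, and the medians of both groups lay below 0 under the ribosomal protein scaling.

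At the other end stood the metal binding list. Its 4 genes were all above 0, with a median of 1.97, and 3 of them (75%) were past 2-fold, against 9.42% of named genes. The metallothionein gene MTA, for a cysteine-rich metal store, read 2409 in Ex1, 951 in Ex2 and 3919 in the pellet. The copper chaperone gene CCH read 1670 in Ex1, 743 in Ex2 and 3022 in the pellet. MT2 read 262, 96.5 and 367, and so passed the filter through the pellet alone. LEMT1 (MTB), by far the brightest of the 4, read 12833, 9411 and 13205, a difference of 0.49. In each of these 4 genes the supernatant was the lowest array. MT4, a gene of similar name that was not on the list, ranged from -0.17 to 1.05 over 4 probe sets.

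The highest named gene was LOC778319, which has no described role in the tables used, at 516 in Ex1, 189 in Ex2 and 1007 in the pellet. TPSI1, a phosphate starvation gene, read 534, 203 and 907. LOC544081 followed at 324.5, 132 and 581, and LOC543632 (STC) read 3044, 1507 and 5222. LOC544298 and DDTFR19 differed by 1.71 and 1.63. All of the 12 highest had their lowest level on Ex2 and their highest on the pellet, with Ex1 between. Their selection puts the pellet above Ex2, so only the place of Ex1 was free to vary. LOC544081, MT2, sumo and LOC778362 reached the filter on the pellet alone, so the filter itself required them to differ. LOC778362, the last of the 12, read 199 in the pellet.

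**Figure D4:**
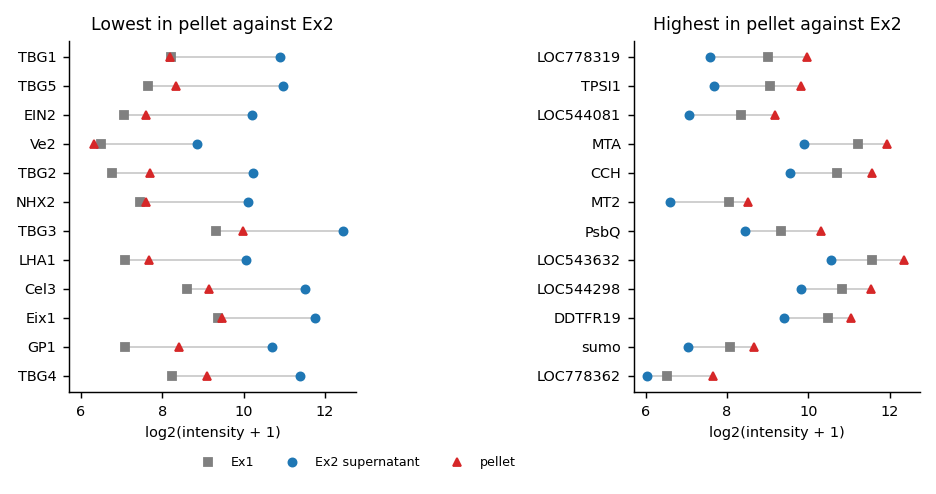
Levels on the Ex1, Ex2 supernatant and pellet arrays as log2(intensity + 1) (x axis) for the 12 named genes lowest (left) and the 12 highest (right) in the pellet against the supernatant, 1 point per array. At left the supernatant stands alone on the right side, as for TBG1 with 295 in Ex1 and 293 in the pellet against 1903. At right the order is supernatant, Ex1, pellet for every gene. The order of pellet and supernatant is fixed by the selection.

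Among them, sumo, the small modifier that is joined to other proteins, read 131 in Ex2 and 402 in the pellet. FKBP12, an immunophilin, just outside the 12, read 1135 and 3451, a difference of 1.60, and its second compared probe set gave 2.09. TIM10, for import into mitochondria, differed by 1.50. Profilin, which binds actin monomers, read 1839 in Ex2 and 4245 in the pellet. FKBP12, TIM10 and profilin were picked after their values were seen, so their being past 2-fold shows nothing about such proteins as a group.

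Proteins of the translation apparatus were higher in the pellet. The 5 cytosolic ribosomal protein genes were all above 0, with a median of 1.11. Past 2-fold were 3 of them (60%), against 9.42% of named genes. The 5 ranged from RPL3, a large member, at 5748 in Ex2 and 7002 in the pellet, to rpl38, a very small one, at 1033 and 2840. RPL37 and RPS25 differed by 1.11 and 1.18, and RPL8 by 0.59. A second compared probe set of RPS25 gave 0.75. A group of 5 translation factors, formed after the values were seen, had a median of 0.93. The 4 genes of eIF-5A, a small factor that helps ribosomes past difficult stretches, ranged from 0.60 for eIF-5A4 to 1.33 for eIF-5A2, and the cap binding factor gene eIF4E1 differed by 1.16.

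The 14-3-3 proteins, soluble adaptors that bind phosphorylated partners, were even in their behaviour. All 8 were compared on both arrays and all 8 were above 0, with none past 2-fold and a median of 0.65. They ran from 0.25 for TFT9 to 0.97 for tft8. TFT7, the brightest, read 8109 in Ex1, 6222 in Ex2 and 8492 in the pellet, and again the supernatant was the lowest array. Their median turned to -0.47 under the ribosomal protein scaling.

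Photosynthesis proteins, made in the cytosol and imported into plastids, had 6 of 8 genes compared, all above 0, with a median of 1.03. PsbQ, a subunit of the oxygen-evolving complex, read 637 in Ex1, 347 in Ex2 and 1265 in the pellet. Its partners PSBO and PSBP differed by 0.11 and 0.17. LOC543978 (psaD) of photosystem I differed by 1.29, the light-harvesting gene CAB4 by 1.20 and PSBR, the brightest, by 0.86. Genes of this group also mark green tissue: the summed level of the 7 green tissue markers was 15211 in Ex1, 10613 in Ex2 and 17464 in the pellet. In bulk tissue fewer cells of a type and less RNA per cell cannot be told apart. The part of tissue makeup in this result was not tested. The pair of epidermal markers, TSW12 and LE16, summed to 1928 in Ex2 and 2073 in the pellet. Of the other markers, those of seed and locular gel read under 15 on both arrays, and the vascular gene TPRP-F1 read 144 in Ex2 and 44.0 in the pellet.

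Transcription factors went both ways. Of 32 genes 21 were compared, with 16 above 0 and a median of 0.30, which turned to -0.82 under the ribosomal protein scaling. At least 2-fold higher were 6 (28.6%) and at least 2-fold lower 2 (9.52%), against 9.42% and 21.4% of named genes. The ripening regulators were close to 0: RIN read 5335 in Ex2 and 5425 in the pellet, TAGL1 differed by 0.04 and NOR by 0.28. PTI4, an ethylene response factor gene, and LOC606712 were 2.15-fold and 2.14-fold higher. The MYB gene LeMYBI differed by 1.15, and the mini zinc finger gene matriochka, the highest, by 1.25. At the other end WRKYIId read 468 in Ex1, 343 in Ex2 and 108 in the pellet, and DREB3 read 732, 320 and 144, so for both the pellet was the lowest array. Both passed the filter through Ex2 alone, so the filter itself required them to differ. Over the 17 members bright on both arrays the median was also 0.30. WRKYIId-4, of the same family as WRKYIId, was on the opposite side at 1.23.

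Plastid enzymes of the isoprenoid and carotenoid pathway had 9 of 11 genes compared, 8 of them below 0, with a median of -0.77. At least 2-fold lower were 3 (33.3%), against 21.4% of named genes. DXS, the entry enzyme of the plastid isoprenoid route, read 3340 in Ex1, 5287 in Ex2 and 1895 in the pellet. The desaturase genes PDS and ZDS, which introduce the double bonds of lycopene, differed by -1.09 and -0.77, and the epoxidase gene ZEP by -1.02. Psy1, phytoene synthase of fruit, read 13478 and 11741, a difference of -0.20 that turned with the spike scaling, and its second compared probe set was at 0. The hydroxylase gene CrtR-b1 had the same deposited value, 1068, on both arrays.

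Sugar and aroma enzymes had shares past 2-fold near that of all named genes. The sucrose, starch and glycolysis list had 7 compared genes, 6 of them below 0, with a median of -0.39. At least 2-fold lower were 2 of them (28.6%), against 21.4% of named genes. SPS, sucrose phosphate synthase, read 2472 in Ex1, 3655 in Ex2 and 1422 in the pellet, and the sucrose synthase gene sus3 differed by -1.01. The fructokinase genes FRK1, FRK3 and FRK2 lay at -0.49, -0.39 and 0.15. The list's median turned to 0.16 under the spike scaling. Of the 7 aroma and lipid oxidation genes compared, 6 were below 0 and 1 was at least 2-fold lower (14.3%), with a median of -0.74. That gene was loxC, a plastid lipoxygenase for fruit volatiles, at 1847 in Ex1, 4310 in Ex2 and 889 in the pellet. Its relatives TomloxE, LOX1.1 and LOXB differed by -0.98, -0.74 and -0.38. The alcohol acyltransferase gene AAT and the alcohol dehydrogenase gene ADH2 differed by -0.20 and 0.03.

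Some further soluble proteins were at least 2-fold lower in the pellet, several of them bright on Ex2 alone: MAPK10, CRY2, TAO2 and FLACCA. The 5 soluble kinases had a median of -0.54, and the 3 of them bright on both arrays one of 0.0082. Among 5 soluble kinases MAPK10 read 227 in Ex1, 307 in Ex2 and 83.5 in the pellet, and CDPK1, a calcium-dependent kinase, read 201, 680 and 213, while MPK2 lay at 0.34 and PTI1 at 0.01. Of the 4 photoreceptor genes the cryptochrome genes CRY2 and CRY1A differed by -1.59 and -1.24 and the phytochrome gene PHYA by -0.86, against 0.18 for Cry1b. A second compared probe set of CRY1A gave -0.58. A group formed after the values were seen held polymerases, aldehyde oxidases and FLACCA (MCS, MOS), which is neither. Its 4 compared genes were TAO2 (-1.56), FLACCA (-1.55), RDRP (-1.22) and RPB2 (-1.19). RPB2, the second largest subunit of RNA polymerase II, read 939.5 in Ex1, 1267 in Ex2 and 553 in the pellet. The phospholipase D genes PLDa1 and PLDa3 differed by -1.16 and -1.10.

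Protective and housekeeping enzymes were mixed. The redox list had 8 compared genes with a median of 0.31, from -0.28 for AOX1a to 1.05 for GPXle-2, with the brightest, the superoxide dismutase gene SODCC.1, at 0.15. CAT2, a catalase gene, had the same deposited value on both arrays, 571. A group of ascorbate and glutathione enzymes, formed after the values were seen, had 6 compared genes with a median of 0.58, and 2 of them (33.3%) were at least 2-fold higher, against 9.42% of named genes. In it DHAR1, which recycles ascorbate, differed by 1.21 in one probe set and 1.65 in the other, and GSH1, the first enzyme of glutathione synthesis, by -0.64. Malate dehydrogenases and malic enzymes had a median of -0.01 over 5 compared genes, and Ran GTPases, which drive nuclear transport, one of 0.13 over 4. The list of cytoskeleton, protein turnover and heat shock genes had all 10 compared. At least 2-fold higher were 3 (30%), against 9.42% of named genes, and 0 were at least 2-fold lower. The median of the list was 0.29, or 0.096 over the 8 bright on both arrays. On it the tubulin gene TUB was tied at 313, and the actin gene ACT and the heat shock gene HSC80 were both at -0.20. The 1 compared gene of polyamine synthesis, ADC, differed by -0.55.

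The largest differences were in probe sets without a name, most of them bright on 1 of the arrays alone: the 3 lowest on Ex2, and the 2 highest on the pellet. The lowest read 231 in Ex1, 1695 in Ex2 and 126 in the pellet, so the pellet was 13.3-fold lower. The next 2 were 13.3-fold and 10.8-fold lower. At the other end the highest read 177 in Ex1, 45.8 in Ex2 and 284 in the pellet, 6.09-fold higher, and the next 2 were 5.89-fold and 5.77-fold higher. Each of these is beyond the named gene at the same end, TBG1 at 6.48-fold lower and LOC778319 at 5.31-fold higher. The genes behind them are not named in the tables used here.

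Agreement between probe sets of a gene was the one measure of precision at hand, and it lies within arrays. Of 24 genes with at least 2 compared probe sets, 23 had them less than 1 apart, with a median range of 0.38. All probe sets had the same sign in 19 genes. In 4 genes, CRY1A, LOC544138, MT4 and RPS25, one probe set was past 2-fold and another was not. MT4 had the widest range, from -0.17 to 1.05 over 4 probe sets. Genes that differ by less than that range are not told apart here.

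Each scaling adds 1 constant to every difference, so the order of the lists is the same by construction and only their place against 0 moves. Under the spike scaling the medians of the cell surface receptors, the ethylene receptors and EIN2, and the membrane transport proteins were -1.87, -1.48 and -1.09, still past 2-fold. That of the cell wall list was -0.81. Under the ribosomal protein scaling the metal binding genes kept a median of 0.85, while the median of photosynthesis was -0.095.

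**Figure D5:**
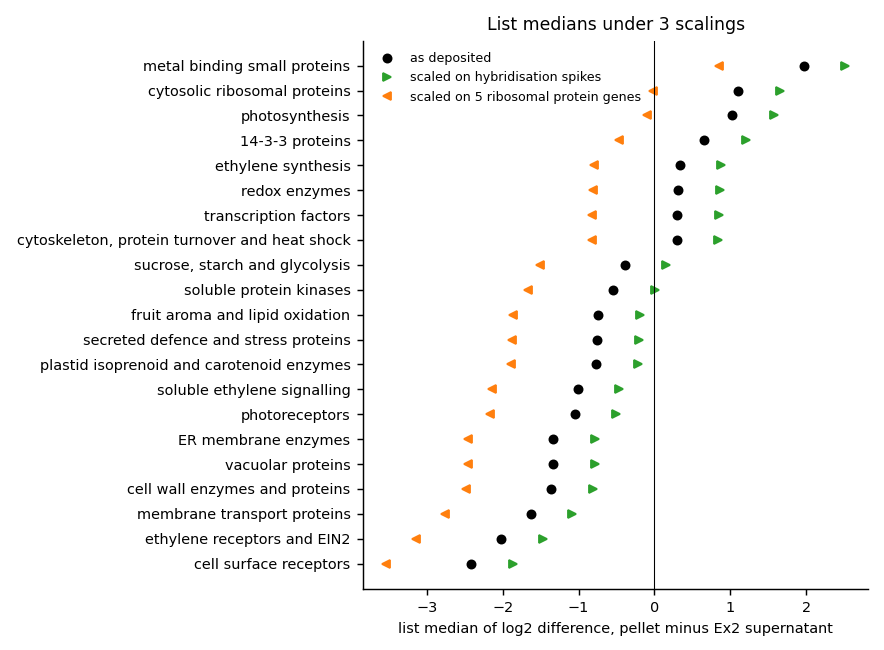
Median log2 difference (pellet minus Ex2 supernatant, x axis) of each list with at least 2 compared genes (y axis) on the deposited scale, scaled on hybridisation spikes and scaled on 5 ribosomal protein genes. The shifts are 0.55 to the right and 1.12 to the left; the median of cell surface receptors moves from -2.42 to -1.87 and -3.54, and the median of metal binding small proteins from 1.97 to 2.52 and 0.85.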

How the data were processed

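Each deposited table gives 1 intensity per probe set, and the range of values places it on a linear, not a log, scale. GCOS 5.0 and RMA are credited to the submitters' processing notes, which state neither order nor settings, and other steps are not given in the sources used here. Arrays were grouped by title. Of the non-control probe sets 1299 had the same value on the pellet and Ex2 arrays, 130 of them among those compared, so a difference of 0 can be an exact tie.

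Names came from an old platform annotation, with symbols updated by Entrez ID from RefSeq's table for assembly SLM_r2.1: 909 probe sets had 1 name, 0 had several, 9129 had none, and 885 of the named had an ID in that table. A gene was read from its probe set of highest mean intensity over the 3 arrays. Members and lists (23 planned lists and 10 added) were chosen with earlier results of these data known. Named genes are the 12 highest and 12 lowest, the extremes and brightest member of each list, the 3 unnamed probe sets at each end, and genes with several probe sets. FKBP12, TIM10, profilin and other members named beside these were chosen after their values were seen. Protein sequences were not used here, so a planned description of protein features was not run. The code was tested on simulated data. Tables were computed with pandas 2.3.3 and NumPy 2.4.6 under Python 3.11.15, and plots with matplotlib 3.10.9.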

Additional observations from a re-analysis of the deposited data

How the results depend on the processing

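No paired analysis was possible because each group has 1 array and no test was made. Of the alternatives, 11 were planned and 1, bright on both arrays, was added after seeing the data. Counts at least 2-fold higher and lower that moved by over 1.5 times are as follows. With the upper-quartile filter there were 592 and 635 probe sets, and 66 genes lower, since fewer were compared. Scaling on the spikes gave 1994 and 567 probe sets and 130 and 55 genes. Scaling on ribosomal protein genes gave 40 and 2863 probe sets and 3 and 307 genes. A 3-fold threshold gave 255 and 538 probe sets and 13 and 52 genes, and a 1.5-fold threshold 1712 probe sets and 110 genes higher. With both arrays bright, 675 probe sets were lower. Under the ribosomal protein scaling 9 of the compared genes past 2-fold changed sign, namely CITRX, LOC606712, MT4, PETE, PTI4, RPL37, TDR6, GPXle-2 (-0.076) and copz1 (-0.027), and under the spike scaling 0 did. So did the medians of photosynthesis (-0.095) and remorins (-0.083). The median of cytosolic ribosomal proteins went to -0.016 by construction, since that scaling is built on them. Of differences under 2-fold, the spike scaling turned 13 and the ribosomal protein scaling 22 of the 97 genes followed under both scalings, and 4 and 10 of the 33 list medians. With single arrays, the spread between preparations is unknown.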
